A study of Homo sapiens with 9 samples.

Results

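The BCL2 family members examined were *BCL2*, *BCL2L1*, *MCL1*, *BAX*, *BAK1*, *BID*, *BBC3*, *PMAIP1*, *BCL2L11* and *BIK*, which are 10 of the 19918 genes with counts in the data set. They were chosen by name, as the best known regulators of mitochondrial apoptosis, and not by a measured value. Earlier results of these data were known when they were chosen. The libraries came from VCaP, an established human prostate cancer epithelial cell line that carries the *TMPRSS2-ERG* fusion and depends on the androgen receptor. The cells received 100 pmol of siRNA by reverse transfection and were harvested after 72 h, and 1.3 µg of total RNA went into each stranded total RNA library. The siRNAs si025 and si033 were separate sequences, both directed against the first exon of the lncRNA *IGF1R-AS1*, which is antisense to *IGF1R*, while a control siRNA was used for the control cells. There were 3 libraries in each of the 3 groups, all of the same cell line, so any comparison describes this line only, and the depletion of *IGF1R-AS1* was not analysed here.

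The BCL2 family decides whether the outer mitochondrial membrane stays intact. Anti-apoptotic members bind and restrain the effectors BAX and BAK, which otherwise assemble into pores that release cytochrome c and activate caspases. BH3-only proteins sense stress and either occupy the groove of the anti-apoptotic members or activate the effectors directly, and much of their regulation is transcriptional.

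All the members share the BH3 core, the short helix through which pro-apoptotic members dock into the groove of anti-apoptotic ones. In coding DNA it appears as a leucine codon, 3 further codons of varied sequence, 1 codon for a small residue and an aspartate codon. The 24 bases around it are printed 5′ to 3′ on the coding strand of GRCh38, from GENCODE 44 transcripts. Capitals mark the leucine codon and the codons of the small residue and aspartate.
BCL2 (chr18:63318358-63318381, minus strand): accCTCcgccaggccGGCGACgac
BCL2L1 (chr20:31721931-31721954, minus strand): gcgCTGagggaggcaGGCGACgag
MCL1 (chr1:150578874-150578897, minus strand): accTTAcgacgggttGGGGATggc
BAX (chr19:48955784-48955807, plus strand): tgtCTCaagcgcatcGGGGACgaa
BAK1 (chr6:33575396-33575419, minus strand): cagCTCgccatcatcGGGGACgac
BID (chr22:17739424-17739447, minus strand): cacCTCgcccaggtcGGGGACagc
BBC3 (chr19:47226588-47226611, minus strand): cagCTGcggcggatgGCGGACgac
PMAIP1 (chr18:59902670-59902693, plus strand): caaCTCaggagatttGGAGACaaa
BCL2L11 (chr2:111150100-111150123, plus strand): gagTTGcggcgtattGGAGACgag
BIK (chr22:43127713-43127736, plus strand): cggCTGgcctgcatcGGGGACgag

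The small residue was glycine in 9 members and alanine in *BBC3*. Each member held exactly 1 match to this pattern in its coding sequence, but the pattern is loose, and 27.8% of the coding sequences of 12017 tested genes held one too. The match is therefore a description and identifies a member only together with its name.

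The deposited values are counts of read pairs per gene, and library totals ranged from 11649811 to 28492259. Below, CPM means counts scaled to a common library size and RPKM means CPM per kilobase of exon, and values are given as mean ± SD of 3 libraries. The luminal prostate markers had at least 10 counts in every library for 11 of 11 genes. Their summed level lay between 9225 and 9459 CPM in the control libraries, between 11267 and 11594 with si025 and between 8135 and 8448 with si033. Summed over 5 genes, fibroblast markers lay between 16.4 and 18.9 CPM in control, between 36.4 and 43.9 with si025 and between 8.90 and 11.2 with si033. That sum rested mainly on *LUM*, with 188 to 412 counts in a control library, 429 to 901 with si025 and 88 to 252 with si033, while *COL1A2*, *DCN* and *PDGFRA* had 0 to 4 counts in any library. These sums moved with the groups, and their part in the results for the BCL2 family was not tested. Endothelial markers summed to at most 2.34 CPM and leukocyte markers to at most 2.18 CPM in any library, with *CDH5* and *CD3E* among the markers at 0. All libraries came from the VCaP line, so these sums describe levels of marker genes and do not measure numbers of cells of a type. In bulk RNA, fewer cells expressing a gene and less RNA per cell cannot be told apart.

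Per exon length, the family was led by the anti-apoptotic gene *MCL1*, with 73.9 ± 2.37 RPKM in the control libraries. *BCL2L1*, which encodes BCL-XL, followed with 29.9 ± 1.13 RPKM, and *BCL2* itself was the lowest member with 0.0973 ± 0.0206 RPKM. Among the tested genes, *MCL1* stood at percentile 93.9 in control, *BCL2L1* at 83.0 and *BCL2* at 1.58, so the founding gene of the family was close to the bottom of the measured range in these cells.

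Both pore-forming effectors were well expressed in control cells. *BAX* had 20.5 ± 0.710 RPKM and *BAK1* 9.93 ± 0.981 RPKM. The BH3-only genes were all lower than the effectors. *BIK* was at 5.76 ± 0.474, *BID* at 4.54 ± 0.450 and *BCL2L11* at 3.57 ± 0.256 RPKM. *BBC3* and *PMAIP1*, which encode PUMA and NOXA, were at 2.02 ± 0.398 and 1.86 ± 0.316 RPKM. Neighbours in this order did not overlap between libraries, except *BBC3* and *PMAIP1*, which overlapped in all 3 groups, and *BID* and *BIK*, which overlapped with si025.

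**Figure D1:**
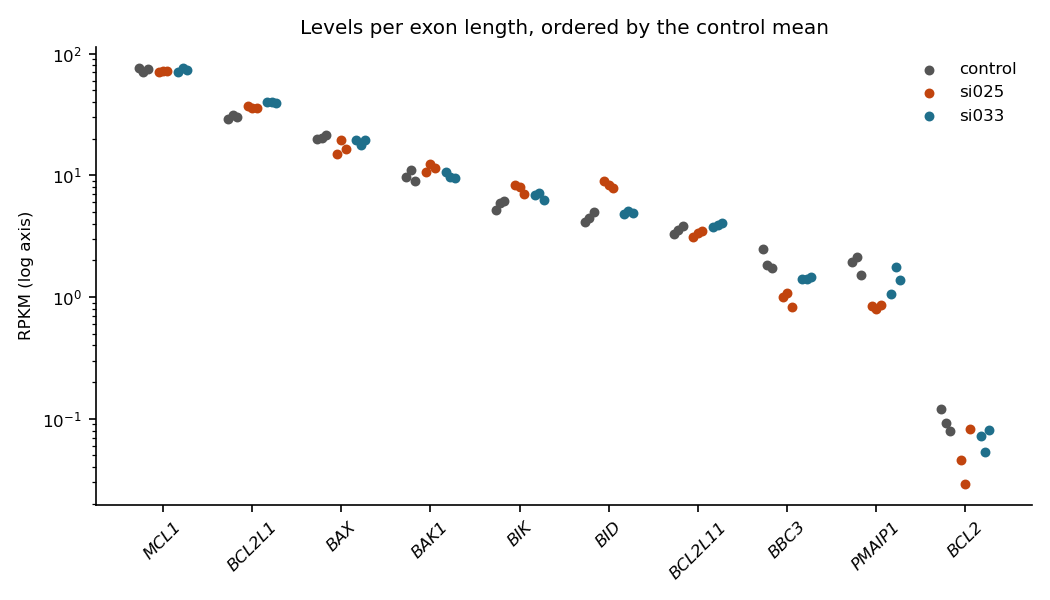
Level of each BCL2 family member per exon length (RPKM, log axis) in control, si025 and si033 cells, with a point for each library. *MCL1* lies near 73.9 RPKM and *BCL2* near 0.0973 RPKM in control, and the order of the members is the same in every group except that *BID* passes *BIK* with si025.

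Of the summed RPKM of the 10 members, *MCL1* held 48.6% in control, 45.4% with si025 and 45.8% with si033. The share of *BCL2L1* was 19.7% in control, 22.9% with si025 and 24.8% with si033. The sum lay between 151 and 153 RPKM in control, between 155 and 161 with si025 and between 159 and 164 with si033. Messenger RNA levels do not give protein levels, and the BCL2 family is also regulated by protein turnover and binding.

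All 10 members passed the expression filter and entered the test, an edgeR quasi-likelihood fit across 12810 genes in which called means an adjusted *p* value below 0.05. With si025 against control, 7 members were called, beside 61.7% of all tested genes. Higher with si025 were 4 of them, *BCL2L1*, *BAK1*, *BID* and *BIK*, beside 32.9% of all genes, and lower were 3, *BAX*, *BBC3* and *PMAIP1*, beside 28.8%. With si033 against control, 2 members were called, beside 54.8% of all tested genes. *BCL2L1* was higher, as were 26.9% of all genes, and *BBC3* was lower, as were 27.8%. Between the siRNAs, 6 members were called, beside 60.9% of all tested genes. *BAK1* and *BID* were higher with si025 than with si033 (31.2% of all genes), and *BCL2L1*, *BBC3*, *PMAIP1* and *BCL2L11* were lower (29.7%).

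The share of members called with si025 and between the siRNAs was thus near that of all genes. With si033 it was lower, at 2 of 10 members beside 54.8% of all genes. That count ranged from 1 to 4 when a library was left out, and the difference in shares was not tested. The libraries of the groups compared did not overlap for 6 members with si025 (65.7% of all tested genes), for 4 with si033 (59.5%) and for 5 between the siRNAs (62.6%). The median log2 fold change of the members was -0.08 with si025 and 0.00 with si033, beside 0.02 and 0.00 over all tested genes. Both comparisons used the same 3 control libraries, so a deviation in a control library enters both.

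**Figure D2:**
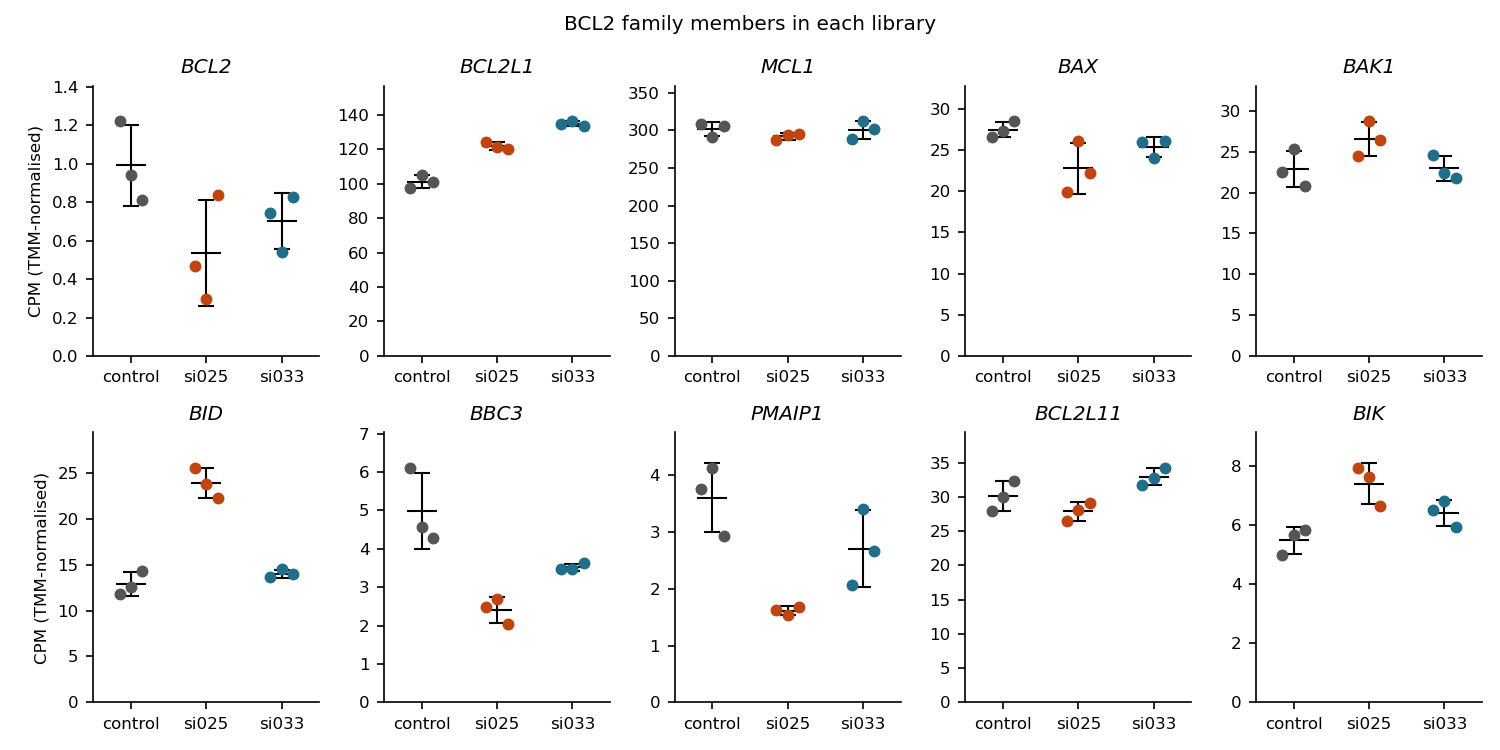
Normalised level (CPM) of each member in the 9 libraries, with a point per library and the group mean ± SD over 3 libraries. *BID* lies between 22.3 and 25.5 CPM with si025 and at most 14.5 CPM elsewhere, and *BCL2L1* is higher with both siRNAs than in any control library.

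Among the anti-apoptotic genes, *BCL2L1* (chr20:31664452-31723999, minus strand) was the member called with both siRNAs in the same direction and higher. Its product BCL-XL sequesters BH3-only proteins and BAX. The control libraries had 97.4, 105 and 101 CPM, the si025 libraries 124, 121 and 120 CPM, and the si033 libraries 134, 136 and 133 CPM. The groups did not overlap, with control lowest and si033 highest. The log2 fold change was 0.27 ± 0.05 (SE, edgeR adjusted *p* = 2.28e-05) with si025, a 1.20-fold increase, and 0.41 ± 0.05 (adjusted *p* = 7.29e-08) with si033, a 1.33-fold increase. Between the siRNAs the difference was -0.14 ± 0.04 (adjusted *p* = 0.00785). The counts do not separate the long anti-apoptotic form of *BCL2L1* from its short pro-apoptotic splice form.

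*MCL1* (chr1:150574551-150579738, minus strand), whose short-lived product restrains BAK, was not called in any comparison. It had 302 ± 9.69 CPM in control, 292 ± 4.58 with si025 and 301 ± 11.8 with si033. The 95% interval of the log2 difference from control was -0.14 to 0.04 with si025 and -0.09 to 0.08 with si033.

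*BCL2* (chr18:63123346-63319778, minus strand), the first anti-apoptotic member described in lymphoma, rested on few counts. The libraries held 14, 13 and 21 counts in control, 6, 6 and 19 with si025 and 9, 7 and 24 with si033. In CPM the control libraries had 1.22, 0.942 and 0.811, the si025 libraries 0.467, 0.298 and 0.840, and the si033 libraries 0.742, 0.542 and 0.828. The third library of each siRNA reached into the control range. The log2 difference was -0.76 ± 0.35 (edgeR adjusted *p* = 0.0629) with si025 and -0.36 ± 0.33 (adjusted *p* = 0.374) with si033, and neither was called. The interval with si025 ran from -1.49 to -0.04, and the depth did not allow a firmer statement. Without the third si025 library the *BCL2* value was -1.36 (adjusted *p* = 0.00868), and without the second it was -0.44 (adjusted *p* = 0.312).

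Of the effectors, *BAX* (chr19:48954825-48961798, plus strand) was lower with si025. In control, the libraries had 26.6, 27.3 and 28.5 CPM, the si025 libraries 19.9, 26.2 and 22.2 CPM, and the si033 libraries 26.0, 24 and 26.1 CPM. Every library of either siRNA lay below every control library, but the second si025 library was close to them. *BAX* fell by 0.26 on the log2 scale with si025 (SE 0.08, edgeR adjusted *p* = 0.00548). With si033 the difference was -0.12 ± 0.08 (adjusted *p* = 0.211, 95% interval -0.28 to 0.04) and was not called, and between the siRNAs it was -0.15 ± 0.08 (adjusted *p* = 0.112). The latter was -0.26 (adjusted *p* = 0.00571) without the second si025 library and -0.08 (adjusted *p* = 0.414) without the first.

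*BAK1* (chr6:33572546-33580293, minus strand), the effector that resides on mitochondria, went the other way with si025. The control libraries had 22.5, 25.3 and 20.8 CPM, the si025 libraries 24.5, 28.7 and 26.4 CPM, and the si033 libraries 24.6, 22.4 and 21.8 CPM. The first si025 library lay inside the control range. The log2 difference was 0.24 ± 0.08 (edgeR adjusted *p* = 0.0107) with si025, 0.01 ± 0.08 (adjusted *p* = 0.947, 95% interval -0.16 to 0.17) with si033 and 0.23 ± 0.08 (adjusted *p* = 0.0128) between them. The call with si025 was lost without the second si025 library (0.18, adjusted *p* = 0.0669) or without the third control library (0.15, adjusted *p* = 0.149). That between the siRNAs was lost without the second si025 library (0.17, adjusted *p* = 0.0774) or without the third si033 library (0.18, adjusted *p* = 0.0998). *BAK1* has the processed pseudogenes *BAK1P1* and *BAK1P2*, and read pairs that also aligned there were not counted.

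Among the 5 BH3-only members, the largest increase was that of *BID* (chr22:17734140-17774665, minus strand), which links death receptors to mitochondria after cleavage by caspase-8. Control libraries had 11.8, 12.6 and 14.3 CPM, the si025 libraries 25.5, 23.8 and 22.3 CPM, and the si033 libraries 13.6, 14.5 and 13.9 CPM. All si025 libraries lay above all others, while the si033 libraries overlapped with control. *BID* rose 1.80-fold with si025 (log2 fold change 0.85 ± 0.08, edgeR adjusted *p* = 4.18e-09). With si033 the log2 difference was 0.09 ± 0.09 (adjusted *p* = 0.405, 95% interval -0.09 to 0.27). The direct difference between the siRNAs was 0.76 ± 0.08 (adjusted *p* = 2.11e-08), a 1.69-fold higher level with si025.

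*BBC3* (chr19:47220822-47232998, minus strand), a p53 target whose product PUMA binds all anti-apoptotic members, was the member called lower with both siRNAs. The control libraries had 6.11, 4.57 and 4.29 CPM, the si025 libraries 2.49, 2.68 and 2.03 CPM, and the si033 libraries 3.46, 3.48 and 3.62 CPM. These rested on 70, 63 and 111 counts in control, 32, 54 and 46 with si025 and 42, 45 and 105 with si033. The groups did not overlap, with si025 lowest and si033 between si025 and control. With si025 *BBC3* fell by 1.03 on the log2 scale (SE 0.17, edgeR adjusted *p* = 2.14e-05), to 0.491 of the control level. With si033 it fell by 0.46 (SE 0.16, adjusted *p* = 0.0228), to 0.729 of control, and the siRNAs differed by -0.57 ± 0.18 (adjusted *p* = 0.00912). The call with si033 was lost without the first control library, the highest one (-0.30, adjusted *p* = 0.142), or without the first (-0.44, adjusted *p* = 0.0525) or the third (-0.49, adjusted *p* = 0.0537) si033 library, where the size of the difference was close to the value from all libraries. The call between the siRNAs was lost without the third si025 library (-0.44, adjusted *p* = 0.0688).

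*PMAIP1* (chr18:59899960-59904306, plus strand), whose product NOXA neutralises MCL1, showed the largest decrease of any member with si025. In control, the libraries had 3.75, 4.13 and 2.94 CPM, the si025 libraries 1.64, 1.54 and 1.68 CPM, and the si033 libraries 2.06, 3.40 and 2.66 CPM. These rested on 43, 57 and 76 counts in control, 21, 31 and 38 with si025 and 25, 44 and 77 with si033. All si025 libraries lay below all others, and the second si033 library lay inside the control range. *PMAIP1* fell by 1.11 with si025 on the log2 scale (SE 0.21, edgeR adjusted *p* = 6.32e-05), to 0.462 of control. The difference with si033 was -0.37 ± 0.19 (adjusted *p* = 0.102, 95% interval -0.77 to 0.02), and the siRNAs differed by -0.74 ± 0.21 (adjusted *p* = 0.00466). Without the second si033 library the value for si033 was -0.52 (adjusted *p* = 0.0376), and without the third control library it was -0.54 (adjusted *p* = 0.0412). It was -0.25 without the first si033 library (adjusted *p* = 0.318) or without the second control library (adjusted *p* = 0.344).

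*BCL2L11* (chr2:111120914-111168445, plus strand) encodes BIM, an activator of BAX and BAK under the control of growth factor signalling. It had 30.1 ± 2.16 CPM in control, 27.9 ± 1.36 with si025 and 33.0 ± 1.24 with si033. Neither siRNA differed from control beyond the threshold, with log2 differences of -0.12 ± 0.07 (edgeR adjusted *p* = 0.130) and 0.12 ± 0.07 (adjusted *p* = 0.114). Between the siRNAs, *BCL2L11* was called, at -0.24 ± 0.07 (adjusted *p* = 0.00282). Without the third control library, si033 against control was called too (0.20, adjusted *p* = 0.0338). The counts do not separate the splice forms of BIM.

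*BIK* (chr22:43110748-43129712, plus strand), a BH3-only gene whose product sits on the endoplasmic reticulum, was higher with si025. The control libraries had 4.98, 5.65 and 5.83 CPM, the si025 libraries 7.94, 7.64 and 6.63 CPM, and the si033 libraries 6.51, 6.81 and 5.94 CPM. All libraries of both siRNAs lay above all control libraries. The log2 difference was 0.40 ± 0.13 (edgeR adjusted *p* = 0.00801) with si025. It was 0.19 ± 0.13 (adjusted *p* = 0.225, 95% interval -0.08 to 0.46) with si033 and 0.21 ± 0.12 (adjusted *p* = 0.140) between the siRNAs, and neither of these was called.

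**Figure D3:**
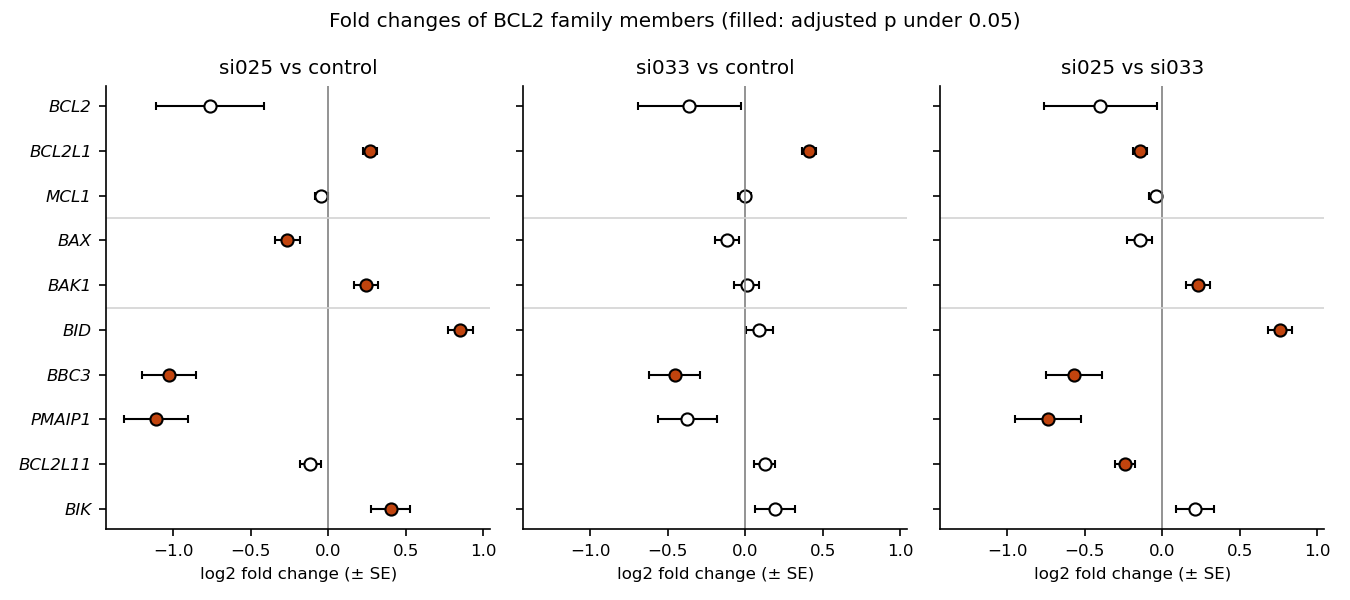
Log2 fold change of each member ± SE, for si025 against control, si033 against control and si025 against si033, with filled points for an adjusted *p* under 0.05. *BID* is at 0.85 with si025 and 0.09 with si033, whereas *BBC3* is at -1.03 and -0.46.

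By role, and beside 61.7% of all tested genes called with si025 and 54.8% with si033, 1 of 3 anti-apoptotic genes was called with either siRNA, *BCL2L1* in both cases. Of the effectors, 2 of 2 were called with si025, in opposite directions, and 0 of 2 with si033. Of the 5 BH3-only genes, 4 were called with si025, with *BID* and *BIK* higher and *BBC3* and *PMAIP1* lower, and 1 was called with si033. The pro-apoptotic genes called with si025 thus went in both directions, and with si033 the only one called was *BBC3*. These counts are too small to set a role apart from the share over all genes.

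The *BAX* to *BCL2* ratio, a common summary of the balance between pro- and anti-apoptotic members, was computed per exon length and is given without a test. It was 166, 221 and 267 in the control libraries, 324, 668 and 201 with si025 and 266, 337 and 240 with si033. The groups overlapped, and the ratio rested on between 6 and 24 *BCL2* counts in a library, so it was too imprecise to order the groups.

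The promoters of the members were searched for short motifs of factors known to act on stress and growth genes, because members moved in different directions. The promoter sequences, from 250 bases before to 50 after the RefSeq start on GRCh38.p14, were given for 8 of the 10 members, all but *MCL1* and *BIK*. The E-box CACGTG, which reads the same on both strands and is bound by MYC and related factors, lay in those of *BAX*, *BID* and *BBC3*. Of 9948 tested genes with promoter sequences, 12.4% held it in any of their promoters. Counted per promoter, it was in 7.26% of all 35116. The *BAX* promoter held 4 copies. The sites are printed with 10 bases on either side, 5′ to 3′ on the strand of the gene, with the motif in capitals, because *BAX* and *BBC3* were called lower with si025 while *BID* was called higher.
BAX (chr19:48954727-48954752, plus strand): attggacagtCACGTGacgggaccaa
BAX (chr19:48954772-48954797, plus strand): caggtgcggtCACGTGacccggcggc
BAX (chr19:48954820-48954845, plus strand): gcggggcggcCACGTGaaggacgcac
BAX (chr19:48954851-48954876, plus strand): gcggggctctCACGTGacccgggcgc
BID (chr22:17774074-17774099, minus strand): gtgtcctctcCACGTGgcctggggat
BBC3 (chr19:47232884-47232909, minus strand): ggggagatttCACGTGagatatagat

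A p53 half-site lay in the *BAK1* promoter and in any promoter of 7.57% of these tested genes, and is printed with 10 bases on either side.
BAK1 (chr6:33580330-33580359, minus strand): aaagtgggcgGGACATGCTCctgggcctgg
The letters TGACGTCA, bound by CREB and ATF factors, were in none of the 8 members and in any promoter of 3.73% of these tested genes. The letters TGATGCAA, a composite element of ATF4, were in none of the 8 and in any promoter of 0.704% of these tested genes. Both strands were searched. A match in these windows is a description and not a binding site, and the regulation of *BBC3* and *PMAIP1* by p53 is known to involve other sequence as well.

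The genes whose level was most like that of a member over the 9 libraries were named for *PMAIP1* and *BBC3*, the members with the largest changes with si025 and si033. For *PMAIP1*, Pearson's *r* of log2 CPM over 9 libraries was 0.990 with *TSR2*, 0.990 with *SIX4*, 0.973 with *KLHL18*, 0.962 with *TTF1* and 0.961 with *TWISTNB*. For *BBC3*, *r* was 0.977 with *ZNF135*, 0.968 with *ALYREF*, 0.966 with *FANCA*, 0.963 with *H1FX* and 0.962 with *POLD1*. These genes were the highest of 12810, the libraries share their 3 groups, and the values are descriptions.

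The rest of the pathway was read from lists of further genes. Of 13 other BCL2 family genes, 7 passed the expression filter. The calls of this and the further lists stand beside those over all tested genes, of which 32.9% were higher and 28.8% lower with si025, 26.9% and 27.8% with si033, and 31.2% and 29.7% between the siRNAs. With si025, 2 were called higher and 4 lower, with si033, 3 higher and 0 lower, and between the siRNAs, 1 higher and 5 lower. The median log2 difference was -0.18 with si025 and 0.03 with si033, beside 0.02 and 0.00 over all tested genes.

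Among them, *BMF*, a BH3-only gene released from the cytoskeleton under stress, had 29.9 ± 0.682 CPM in control, 32.6 ± 1.65 with si025 and 61.4 ± 1.45 with si033. *BMF* rose with si033 (log2 fold change 1.03, edgeR adjusted *p* = 5.77e-13), whereas the value with si025 was 0.12 (adjusted *p* = 0.0857), and the siRNAs differed by -0.91 (adjusted *p* = 1.71e-12). The si025 value of *BMF* ranged from 0.03 to 0.17 over the alternatives, and was called without the second si025 library (0.16, adjusted *p* = 0.0330) and with upper quartile scaling or library totals alone. The log2 fold change of *BMF* with si033 was larger in size than that of any of the 10 members with si033. *BAD*, a BH3-only gene controlled by survival kinases, rose from 172 ± 5.34 CPM to 218 ± 6.64 with si025 (0.34, adjusted *p* = 7.00e-07) and to 208 ± 6.83 with si033 (0.27, adjusted *p* = 2.50e-05). *BCL2L12* fell by 0.57 on the log2 scale with si025 (adjusted *p* = 0.000282) and had a value of -0.22 with si033 (adjusted *p* = 0.123).

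In the list of the apoptosome, the caspases and mitochondrial factors, 16 of 16 genes were tested. With si025, 4 were called higher and 8 lower, with si033, 2 higher and 4 lower, and between the siRNAs, 4 higher and 9 lower. *CASP6*, which encodes an effector caspase, was higher with si025 (log2 fold change 0.32, edgeR adjusted *p* = 0.0312) and lower with si033 (-0.52, adjusted *p* = 0.00274), and the siRNAs differed by 0.84 (adjusted *p* = 8.62e-06). The call of *CASP6* with si025 was lost with DESeq2 (0.31, adjusted *p* = 0.0921) and without the first or the third si025 library or the first or the second control library (values between 0.23 and 0.33, adjusted *p* between 0.0505 and 0.126).

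Of 8 caspase inhibitors, 6 were tested, of which 2 were called higher and 2 lower with si025, 0 higher and 3 lower with si033, and 3 higher and 1 lower between the siRNAs. *BIRC3*, which encodes cIAP2, had 30.4 ± 2.21 CPM in control, 45 ± 2.72 with si025 and 17.3 ± 1.81 with si033. *BIRC3* rose with si025 (0.56, edgeR adjusted *p* = 2.78e-07) and fell with si033 (adjusted *p* = 9.67e-09), and the siRNAs differed by 1.36 (adjusted *p* = 2.24e-13). *BIRC5*, which encodes survivin and peaks in mitosis, fell by 0.64 with si025 (adjusted *p* = 1.71e-10) and by 0.36 with si033 (adjusted *p* = 2.10e-06). *BIRC2*, which encodes cIAP1, rose with si025 (0.23, adjusted *p* = 0.00183) and had a value of 0.02 with si033 (adjusted *p* = 0.758).

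In the death receptor pathway, 8 of 11 genes were tested, of which 3 were called higher and 2 lower with si025, 0 higher and 4 lower with si033, and 3 higher and 1 lower between the siRNAs. The receptor gene *FAS* had 188 ± 10.2 CPM in control, 190 ± 5.08 with si025 and 95.3 ± 5.11 with si033. *FAS* fell by 0.99 on the log2 scale with si033 (edgeR adjusted *p* = 1.70e-13) and had a value of 0.01 with si025 (adjusted *p* = 0.918). *TNFSF10*, which encodes the ligand TRAIL, had 16.8 ± 1.14 CPM in control, 23.3 ± 1.16 with si025 and 9.27 ± 0.836 with si033. *TNFSF10* rose with si025 (0.48, adjusted *p* = 1.03e-05) and fell with si033 (-0.88, adjusted *p* = 1.76e-08), a difference of 1.36 between the siRNAs (adjusted *p* = 2.12e-12). The adaptor gene *TRADD* rose with si025 (0.76, adjusted *p* = 0.000803) and had a value of 0.41 with si033 (adjusted *p* = 0.0670). The si033 value was called without the third si033 library (0.54, adjusted *p* = 0.0436) or the second control library (0.54, adjusted *p* = 0.0376). It was also called with library totals alone (0.47, adjusted *p* = 0.0393), and ranged down to 0.28 under other alternatives.

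Among regulators of the members, 12 of 13 genes were tested, of which 3 were called higher and 5 lower with si025, 1 higher and 7 lower with si033, and 4 higher and 5 lower between the siRNAs. *E2F1*, which drives the S phase and can activate BH3-only genes, had 113 ± 3.87 CPM in control, 63.4 ± 1.72 with si025 and 91.3 ± 4.74 with si033. *E2F1* fell by 0.83 on the log2 scale with si025 (edgeR adjusted *p* = 2.45e-12) and by 0.30 with si033 (adjusted *p* = 1.82e-05). *FOXO1*, a forkhead factor restrained by AKT, rose with si025 (0.88, adjusted *p* = 0.000558) and had a value of 0.19 with si033 (adjusted *p* = 0.484). *MYC* fell by 0.78 with si025 (adjusted *p* = 4.69e-13) and by 0.52 with si033 (adjusted *p* = 7.16e-10).

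**Figure D4:**
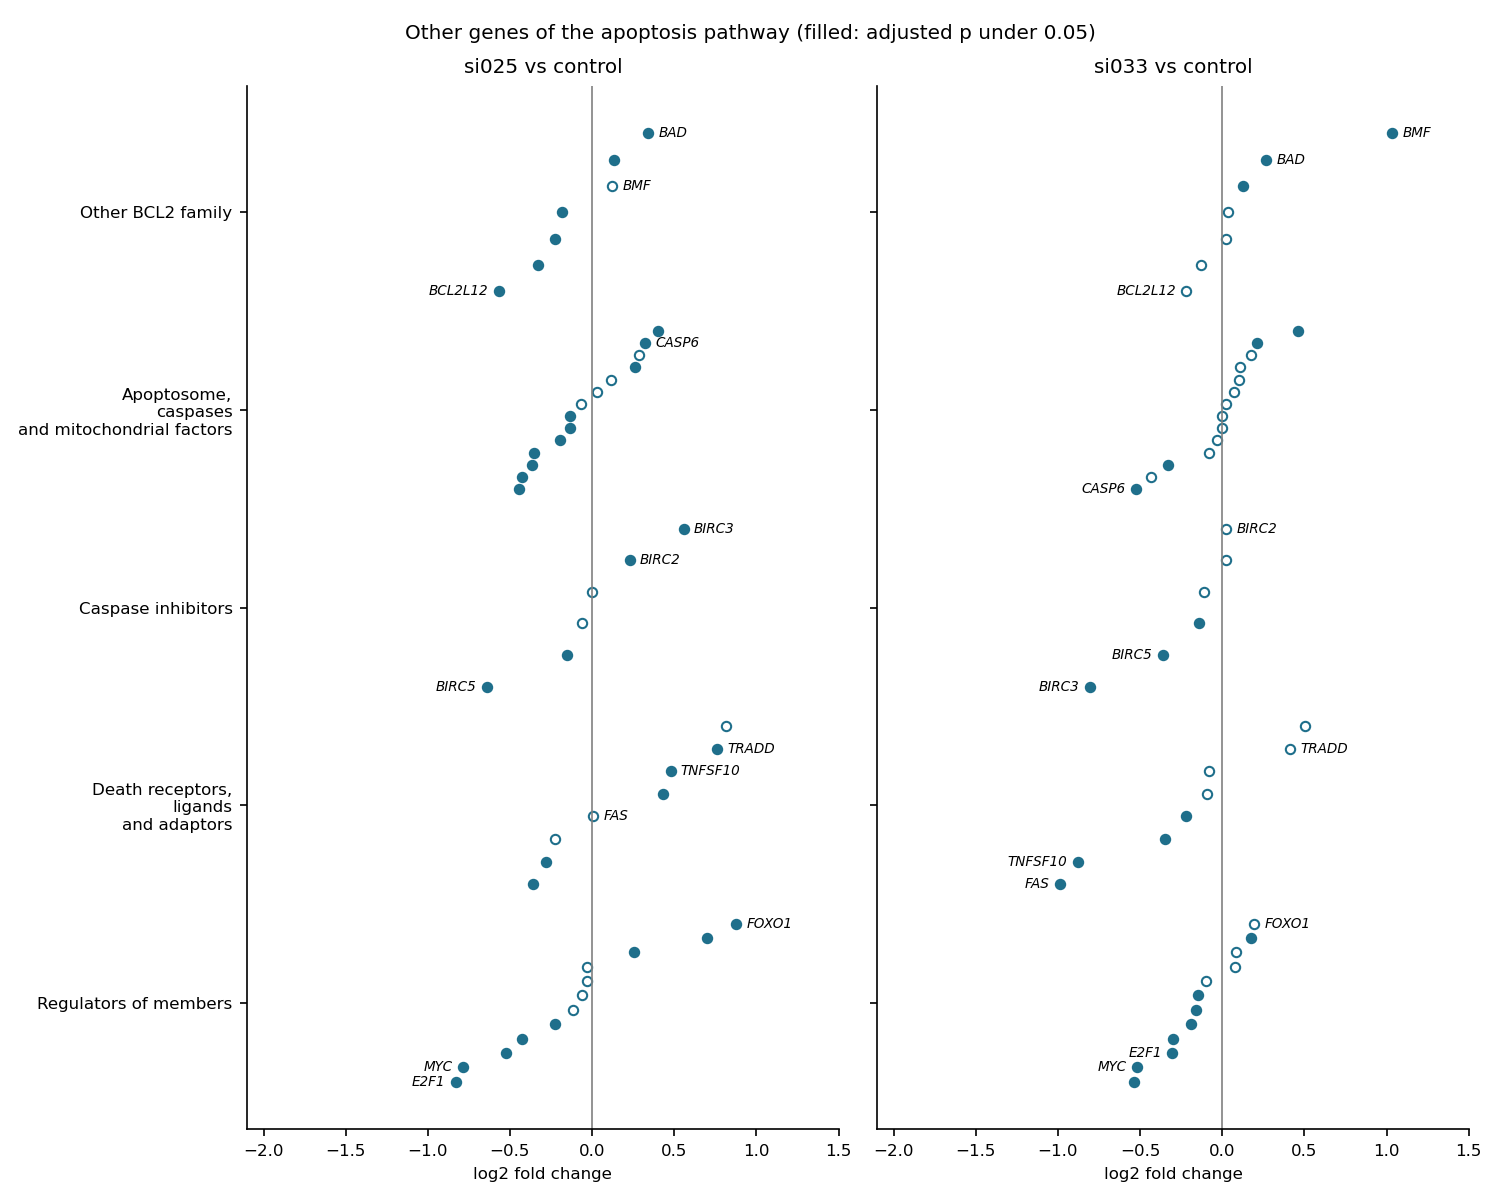
Log2 fold change of tested genes of the wider lists, apart from those not reported here, for si025 and si033 against control, with filled points for an adjusted *p* under 0.05 and the genes described in the text labelled. *BMF* is at 1.03 and *FAS* at -0.99 with si033, and *BIRC3* is at 0.56 with si025.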

How the data were processed

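The authors aligned adaptor-trimmed read pairs to GRCh38 with HISAT2, per the study's methods. The submitters' processing notes give HISAT2 2.1.0, whereas the study names a later version elsewhere and none for these libraries. Per the file headers, the authors made the deposited counts with featureCounts 1.5.2, as whole read pairs on the sense strand of exons, added up per gene symbol. The header's annotation is RefSeq on hg38, and that of the methods is GENCODE. The labels name a Promega extraction kit and the methods a Qiagen kit. Multi-mapped pairs were not counted, and no member's exons overlapped another gene.

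Libraries were grouped by their titles. All 9 were fitted together in edgeR 4.0.16 under R 4.3.3, with TMM scaling, the default expression filter (12810 of 19918 genes) and quasi-likelihood tests of si025 against control, si033 against control and si025 against si033. Benjamini-Hochberg adjustment covered every tested gene, and an adjusted *p* under 0.05 is a call. Standard errors were the absolute log2 fold change divided by the root of F. The study calls its RNA-seq replicates biological, but neither it nor the labels state separate cultures, and *p* values measure the spread between these libraries. Libraries of a group differed beyond counting noise (chi-square per degree of freedom 1.72 to 5.09), and each counted as 1 sample. The highest values were those of the second si025 library, 5.09 with the first and 4.42 with the third, against 2.26 between the first and the third.

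The members, lists and rules were chosen with earlier results of these data known. The 10 members were named in every comparison, as were the 3 genes of each further list with the largest change among those called with either siRNA against control, and the 5 genes most like each of 2 members. Alternatives were other scalings, no filter, DESeq2 1.42.0, limma 3.58.1 with voom, a replicate block and each library left out. Offsets for GC content and length, the BH3 pattern and the promoter motifs were chosen after seeing the data. The code was tested on simulated data. Some listed genes that this rule would name are not reported here, although the counts of their lists include them.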

Additional observations from a re-analysis of the deposited data

Results flagged for a closer look

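For 6 members the effects of the siRNAs differed in the direct test of si025 against si033 (edgeR quasi-likelihood test, adjusted over all 12810 genes tested, where 60.9% of genes were called). The log2 difference, si025 minus si033, was 0.76 for *BID* and 0.23 for *BAK1*, which were higher with si025. It was -0.74 for *PMAIP1*, -0.57 for *BBC3*, -0.24 for *BCL2L11* and -0.14 for *BCL2L1*, which were lower with si025. *BCL2L11* was called in this comparison and in neither comparison with control. Groups of 3 libraries were too small for a search for single outlying libraries.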

How the results depend on the processing

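Of 30 comparisons of a member, 15 were called, 11 of these under all 18 alternatives, and 0 of the 15 changed direction under any. Of the rest, 3 changed sign around values near 0, *MCL1* with either siRNA and *BAK1* with si033. With si033 the count of members called moved from 2 to 1 with DESeq2, where *BBC3* had a value of -0.48 (adjusted *p* = 0.0533), and ranged from 1 to 4 when a library was left out, with 4 reached without the third control library. With a library left out, 6 to 8 members were called with si025 and 5 to 6 between the siRNAs. *BAX* with si033 (-0.16, adjusted *p* = 0.0387) and *BCL2L11* with si025 (-0.17, adjusted *p* = 0.0140) were called with offsets for GC content and length, as was *BIK* between the siRNAs (0.30, adjusted *p* = 0.0298). *BCL2L11* with si033 was called with upper quartile scaling (0.15, adjusted *p* = 0.0476) and with library totals alone (0.18, adjusted *p* = 0.0223), and *BCL2* with si025 was called with voom (-0.87, adjusted *p* = 0.0311). The cause of these shifts was not tested. With library totals alone, 59.3% of the genes called with si033 were higher, against 49.2% with TMM. Same-numbered libraries did not deviate together (correlations -0.0214 to 0.0729). In groups of 3 libraries this cannot decide whether same-numbered libraries were prepared together, and library totals rose from replicate 1 to replicate 3 in every group. The fit with the replicate block called 7, 2 and 6 members and 8000, 7094 and 7843 genes. Without division by exon length, the mean *BAX* to *BCL2* ratio was 28.6 in control, 52.3 with si025 and 36.9 with si033, and with a library left out the ratio per length ranged from 193 to 244, 263 to 496 and 253 to 301. Depth limited *BCL2*, with 6 to 24 counts in a library. *PMAIP1* and *BBC3* also rested on modest counts, 21 to 77 and 32 to 111 in a library.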

Other observations

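*BNIP3L* was listed at 0 counts in all 9 libraries and *TNFRSF1A* at 0 to 14 counts. Many cell types express both genes, and these counts do not show that the transcripts were absent. Other genes of the BCL2 family that did not pass the expression filter were *BCL2A1*, *BCL2L10*, *BCL2L14*, *BCL2L15* and *HRK*. Likewise *BIRC7* and *NAIP* among the caspase inhibitors, *FASLG*, *TNFRSF1A* and *TNFRSF10D* in the death receptor pathway and *TP63* among the regulators were not tested.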
